A study of Mus musculus with 9 samples.

Results

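ADAM proteases, ADAMTS proteases, ADAMTS-like proteins and the TIMP inhibitors were followed in HC11 mammary epithelial cells carrying different forms of the transcriptional coactivator Mkl1. A gene was taken when a probeset with exactly 1 gene symbol named it Adam, Adamts or Adamtsl followed by a digit, or Timp1 to Timp4, and each gene was read from its probeset with the highest mean over all arrays. This gave 61 of the 19937 genes that have such a probeset. HC11 is a mouse mammary epithelial cell line that was derived from BALB/c mice in the middle of pregnancy. All 3 strains stably expressed an Mkl1 construct with red fluorescent protein (RFP) at its C-terminus. HC11-FL cells carried full length Mkl1 and were the control, HC11-mutB1 cells carried Mkl1 with alanine substitutions in the B1 site that binds serum response factor (SRF), and HC11-ΔSAP cells carried Mkl1 that lacks the SAP domain, a putative DNA-binding domain. All cultures spent 48 h in medium with 0.03% FCS and no EGF, and 3 arrays were hybridized per strain. Each construct was represented by 1 strain, selected with Geneticin and sorted for RFP. No strain without an Mkl1 construct was arrayed, so the comparisons are between Mkl1 variants and not with normal HC11 cells. The labels number the replicates of a strain without saying how they were grown, so the p-values measure the spread between these samples, which may be technical.

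ADAMs are membrane-anchored metalloproteases that cut the extracellular part of growth factors, cytokines, adhesion molecules and Notch receptors from the cell surface. ADAMTS proteases are secreted, bind to the extracellular matrix through thrombospondin repeats, and cleave proteoglycans, procollagens and other matrix proteins. ADAMTS-like proteins share these repeats but have no protease domain, and several of them bind fibrillin microfibrils. TIMPs block matrix metalloproteinases, and Timp3 in particular also blocks several ADAM and ADAMTS enzymes. In the mammary gland, sheddases of this family release the ligands of the EGF receptor that drive duct growth, and matrix turnover accompanies branching and involution.

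Levels are log2 expression values, and those of different probesets were not compared with each other. In bulk RNA, fewer expressing cells and less RNA per cell cannot be told apart. Array medians lay between 4.53 and 4.60. Across probesets, r was 0.994 to 0.995 within a strain and 0.985 to 0.989 between strains. The Mkl1 probeset (Mrtfa in the annotation) cannot tell the construct from the endogenous gene, and differed from the control by -0.12 in HC11-mutB1 (adjusted p = 0.31) and by -0.48 in HC11-ΔSAP cells (adjusted p = 0.0018). Srf differed by -0.08 and -0.00, and Mkl2 (Mrtfb) by 0.13 and 0.17, without passing the test. At the protein level, the study reports strains sorted for similar amounts of Mkl1-RFP and about equal overexpression on an immunoblot. Whether the Mkl1 probes cover the deleted SAP sequence was not examined.

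Of 9 mammary epithelial markers, 8 had a mean level of at least 4, the level below which the study's methods discard a probeset, and Krt19 lay at 3.39. Against the control, 3 of the 9 were called lower and 3 higher in HC11-mutB1 cells, where 7.02% and 10.3% of all genes were called. For HC11-ΔSAP cells, 6 were called lower, 2 of them by at least 2-fold, and 2 higher, Epcam (0.42) and Cdh1 (0.37). Of all genes, 7.92% were called lower there, 1.36% by at least 2-fold, and 10.6% higher. A mean level of at least 4 was reached by 13157 of all 19937 genes, a smaller part than of these markers. Krt5 differed by 1.15 in HC11-mutB1 cells, but by -1.90 in HC11-ΔSAP cells. Cldn7 differed by -1.98 and -0.89, and Krt18 by -0.65 and -1.36. The log2 summed level of all 9 was 13.00 to 13.05 in HC11-FL, 13.23 to 13.28 in HC11-mutB1 and 12.82 to 12.84 in HC11-ΔSAP cells. The summed level of 6 fibroblast markers was 8.55 to 8.61, 8.39 to 8.46 and 8.59 to 8.64 in the same order, with Lum at 2.48 and Fap at 2.70. Of the other fibroblast markers, Pdgfra differed from the control by 0.51 and -0.42, Pdgfrb by -0.87 and -0.38 and Dcn by -0.48 and 1.81 in HC11-mutB1 and HC11-ΔSAP cells, all of them called, while Col3a1 differed by 0.01 and 0.03. That of 4 leukocyte markers was 7.97 to 8.02, 7.65 to 7.74 and 8.35 to 8.38, with Ptprc at 3.49, Adgre1 at 3.11 and Cd3e at 4.70. Cd68, at a mean level of 7.73, was called lower in HC11-mutB1 (-0.34) and higher in HC11-ΔSAP cells (0.45). Of 3 adipocyte markers, Adipoq lay at 2.74, and the sum was 8.03 to 8.23, 7.10 to 7.36 and 9.24 to 9.42, where Fabp4 differed by -0.97 and 1.34. None of 4 endothelial markers reached 4. The fibroblast sum overlapped between HC11-FL and HC11-ΔSAP cells. The part of these markers in the results was not tested.

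The study asks which genes need the SRF contact or the SAP domain of Mkl1. The windows before the start sites of Timp1, Timp2 and Adamtsl4 are shown because these genes differed in 3 different ways, as described further on. All run 5′ to 3′ on the strand of the gene, taken from RefSeq in build GRCm38.p6. The Timp1 window is chrX:20869916-20870165 on the plus strand, that of Timp2 is chr11:118355412-118355661 on the minus strand, and that of Adamtsl4 is chr3:95687928-95688167 on the minus strand. Capitals mark matches of either strand to the letters GGAATG, bound by TEAD factors, and GGGCGG, the GC box bound by Sp1.
Timp1: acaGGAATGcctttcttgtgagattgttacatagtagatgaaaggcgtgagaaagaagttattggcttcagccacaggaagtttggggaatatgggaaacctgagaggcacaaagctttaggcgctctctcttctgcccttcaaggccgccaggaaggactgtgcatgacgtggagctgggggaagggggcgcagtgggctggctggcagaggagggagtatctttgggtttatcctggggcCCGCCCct
Timp2: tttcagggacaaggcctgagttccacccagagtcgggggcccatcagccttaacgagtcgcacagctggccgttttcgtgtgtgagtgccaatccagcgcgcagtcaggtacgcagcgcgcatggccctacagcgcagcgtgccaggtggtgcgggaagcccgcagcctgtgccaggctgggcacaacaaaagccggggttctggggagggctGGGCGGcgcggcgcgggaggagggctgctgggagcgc
Adamtsl4: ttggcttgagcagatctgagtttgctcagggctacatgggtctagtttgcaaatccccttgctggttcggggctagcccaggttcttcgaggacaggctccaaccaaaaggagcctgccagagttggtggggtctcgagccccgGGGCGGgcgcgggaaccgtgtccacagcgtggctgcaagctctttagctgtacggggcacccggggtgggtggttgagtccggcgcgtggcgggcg
The share of G and C was 54.4% in the Timp1 window, 68% in that of Timp2 and 63.75% in that of Adamtsl4. The TEAD letters began 247 bases before the Timp1 start site, and 1 GC box match stands complete in each printed sequence. For Adamtsl4 240 of the 250 searched bases are printed, since the annotated gene begins within the window. A second GC box match began 15 bases before its start site and runs past the end of the printed sequence. Promoters of 35 of the 61 genes were in the RefSeq table, 37 windows in all, and the 250 bases before each start were searched on both strands for 4 motifs, none of which contains another. The GC box was found in 17 of these 37 windows and in 32.7% of all 32851 promoters. TEAD letters were found in 3 windows (Adam19, Adamts13 and Timp1) and in 12.6% of all promoters. The letters TGANTCA of AP-1 were found in 4 windows (Adam19, Adam20, Adam25 and Adam29) and in 6.75% of all promoters. The CArG box, the SRF element, was found in none of the 37 windows and in 1.47% of all promoters. A match is a run of letters in these windows and no measurement of binding.

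Of the 61 genes, 31 had a mean level of at least 4 and could be called. A gene was called at an adjusted p of at most 0.01 in limma, with the adjustment over all probesets, at any fold. Against the control, 4 genes were lower and 6 were higher in HC11-mutB1 cells, where 7.02% and 10.3% of all 19937 genes were called. In HC11-ΔSAP cells 4 were lower and 5 were higher, with 7.92% and 10.6% of all genes called. Between the mutants, 7 were lower and 5 were higher in HC11-ΔSAP cells than in HC11-mutB1, with 7.02% and 6.51% of all genes called. As shares of the 61 genes, these are 16.4%, 14.8% and 19.7% in either direction, beside 17.4%, 18.5% and 13.5% of all genes. Of all 19937 genes, 13157 had a mean level of at least 4 and could be called. That is a larger part than the 31 of the 61 genes, so these shares do not rest on a like base. With the fold of at least 2 that the study's methods also require, 1 gene was lower and 2 were higher in HC11-mutB1 cells (background 1.1% and 1.46%), and 2 were lower and 1 was higher in HC11-ΔSAP cells (1.36% in each direction). Between the mutants, 4 were lower and 1 was higher by that filter (1.5% and 1.06%). The median log2 fold change of the 61 genes was -0.04, -0.01 and 0.01 in the 3 comparisons, and that of all genes -0.02, 0.00 and 0.02. The medians lay near 0 in both mutant strains, while single genes moved in opposite directions. Both comparisons with the control use the same HC11-FL arrays, so likeness between them is partly built in.

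Of the 17 genes called in at least 1 comparison, 5 are membrane ADAMs with known catalytic activity (of 9), 3 are ADAMTS that cleave proteoglycans (of 7), 1 is an ADAMTS that cleaves cartilage oligomeric matrix protein (of 2), 2 are remaining ADAMTS (of 6), 3 are ADAMTS-like (of 5) and 3 are TIMPs (of 4). The share of all genes called in at least 1 comparison was not counted. These counts therefore have no base beside them and do not show that any role was called more often than other genes. Adamts4 and Adamts7 were lower in both mutant strains, and Adam8 and Timp2 were higher in both. Adam9 and Adamtsl5 were called lower against HC11-FL in HC11-mutB1 cells alone, and Adamts16 in HC11-ΔSAP cells alone. Adamts6, Adamtsl3 and Timp1 were called higher in HC11-mutB1 cells alone, and Adamts5, Adamts9 and Adamtsl4 in HC11-ΔSAP cells alone. Adam12 was called in opposite directions. Adam10, Adam17 and Timp3 were called between the mutants but in neither comparison with the control.

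**Figure D1:**
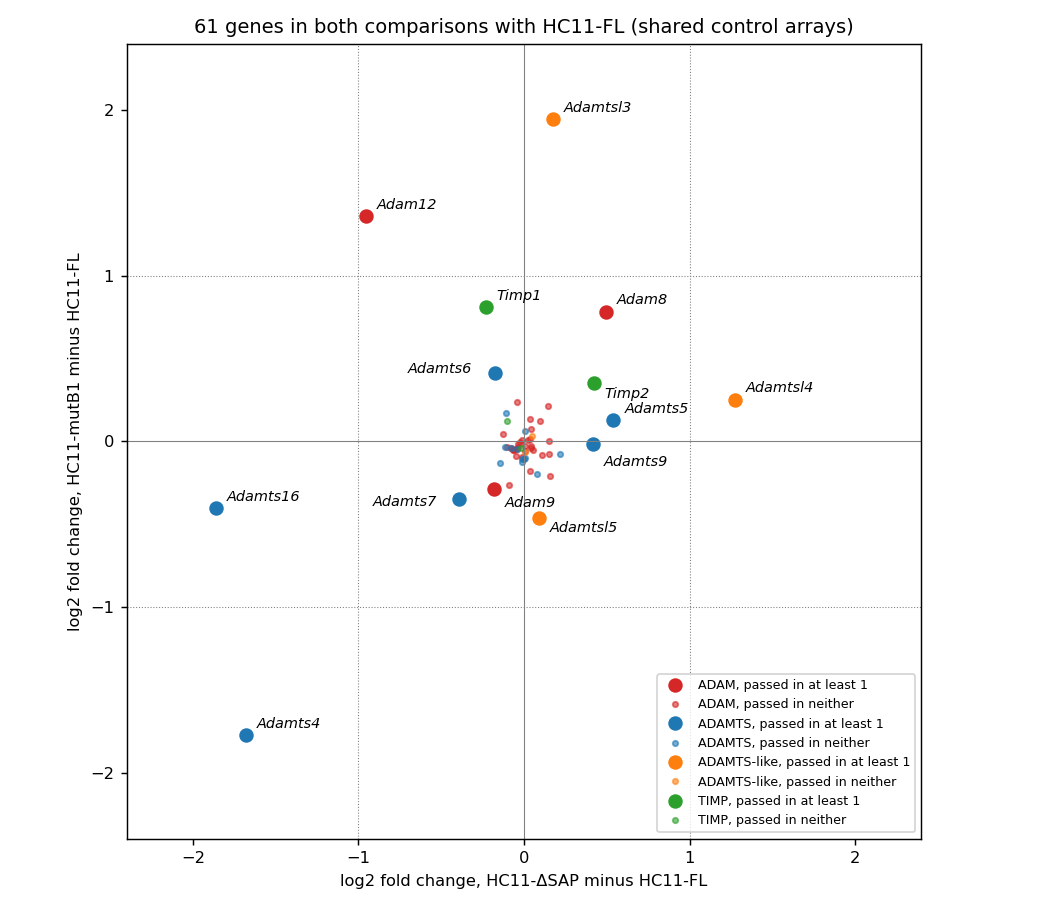
Log2 fold change of each of the 61 genes in HC11-ΔSAP (x-axis) and HC11-mutB1 (y-axis) against the same HC11-FL control arrays, with large points for genes that passed an adjusted p of at most 0.01 at a mean level of at least 4 in at least 1 of these comparisons. Most genes lie near 0 on both axes, Adamts4 is low on both (-1.68 and -1.77), Adamts16 is low on the x-axis (-1.86), Adamtsl3 is high on the y-axis (1.95) and Adam12 has opposite signs (-0.96 and 1.36). The mean of Adamtsl3 in HC11-FL cells was 3.45, under the minimum level of 4.

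Among the membrane ADAMs, Adam12 differed most. Adam12, also called meltrin alpha, sheds EGF receptor ligands and is found at raised levels in breast tumours. Its level was 8.39 in each of the 3 HC11-FL arrays, 9.74, 9.70 and 9.80 in HC11-mutB1 and 7.41, 7.46 and 7.43 in HC11-ΔSAP cells. The 3 strains did not overlap, with HC11-mutB1 highest and HC11-ΔSAP lowest. Adam12 was 2.56-fold higher in HC11-mutB1 (log2 difference 1.36, SE 0.04, adjusted p = 5.2e-07) and, in HC11-ΔSAP cells, 1.94-fold lower (-0.96, SE 0.04, adjusted p = 3.0e-06) than in the control. Between the mutants the difference was 4.97-fold, the widest of the 61 genes in any comparison. The deposited value is identical in the 3 control arrays, which gives an SD of 0 that the cultures need not have had. Such repeated values within a strain occur in 27 of the 61 genes, and their SEs and p-values may be too small.

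Adam8, a sheddase of adhesion molecules that is best known from leukocytes, lay at 6.29, 6.27 and 6.48 in HC11-FL, 7.13, 7.21 and 7.06 in HC11-mutB1 and 6.84, 6.82 and 6.86 in HC11-ΔSAP cells. Every array of the mutants was above every control array. It was 1.72-fold higher in HC11-mutB1 (log2 difference 0.78, adjusted p = 9.4e-05) and, in HC11-ΔSAP cells, 1.41-fold higher (0.49, adjusted p = 0.0010). The mutants did not overlap either, but their difference of -0.29 missed the threshold (adjusted p = 0.021). Of the 4 leukocyte markers, Cd68 was called lower in HC11-mutB1 (log2 difference -0.34) and higher in HC11-ΔSAP cells (0.45), and the other 3 (Ptprc, Cd3e and Adgre1) differed by -0.16 to 0.08 in HC11-mutB1 and by -0.05 to 0.08 in HC11-ΔSAP cells without being called. Their part in the Adam8 result was not tested.

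Adam10 and Adam17 are the main sheddases of mammalian cells. Adam10 cuts Notch receptors and cadherins, and Adam17, known as TNF-converting enzyme, releases TNF and ligands of the EGF receptor. Adam10 lay at 9.66, 9.78 and 9.72 in HC11-FL, 9.87, 9.98 and 10.01 in HC11-mutB1 and 9.67, 9.66 and 9.70 in HC11-ΔSAP cells. Adam17 lay at 9.39, 9.40 and 9.40 in HC11-FL, 9.11, 9.18 and 9.28 in HC11-mutB1 and 9.48, 9.56 and 9.62 in HC11-ΔSAP cells. The order of the mutants was thus opposite for the 2 sheddases, with no overlap between the mutants in either. Adam10 was 1.21-fold lower in HC11-ΔSAP cells than in HC11-mutB1 (log2 difference -0.28, adjusted p = 0.0088), and Adam17 was 1.29-fold higher (0.37, adjusted p = 0.0031). The Adam10 call was lost when any array other than HC11-mutB1 replicate 1 was left out (adjusted p = 0.011 to 0.037), and the Adam17 call without HC11-mutB1 replicate 1 or 2 or HC11-ΔSAP replicate 2 or 3 (adjusted p = 0.013 to 0.015).

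Adam9, or meltrin gamma, lay at 10.02, 10.07 and 10.11 in HC11-FL, 9.74, 9.77 and 9.81 in HC11-mutB1 and 9.82, 9.92 and 9.92 in HC11-ΔSAP cells. All control arrays were above all mutant arrays. It was 1.22-fold lower in HC11-mutB1 cells (log2 difference -0.29, adjusted p = 0.0031), a call that was lost without HC11-FL replicate 2 or 3 or HC11-mutB1 replicate 1 or 2 (adjusted p = 0.012 to 0.015). In HC11-ΔSAP cells the difference was -0.18 (adjusted p = 0.029). Adam15, or metargidin, differed by -0.27 in HC11-mutB1 (adjusted p = 0.026) and -0.09 in HC11-ΔSAP cells (adjusted p = 0.45), which did not pass. Adam19, a protease of neuregulins, had a mean level of 3.93 and differed by -0.08 and 0.15. Adam33 lay at 5.07 and differed by -0.00 and -0.03, and Adam28 had a mean level of 2.99. Of the 3 genes listed as ADAMs of brain and adhesion without a catalytic site, Adam11 lay at 5.30 and was not called. Adam22 and Adam23 lay at 2.71 and 3.11.

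The 22 ADAMs known mainly from testis or epididymis, among them the fertilin subunit Adam2 and the sperm protein Adam3, had mean levels of 2.36 to 3.70, so none could be called, and 1 had an unadjusted p under 0.05 in limma (in HC11-mutB1 cells). Their log2 fold changes lay between -0.18 and 0.22 in HC11-mutB1 and between -0.13 and 0.15 in HC11-ΔSAP cells, with a median of -0.03 and -0.00. In the GRCm38.p6 annotation Adam9 ends a run of 5 neighbouring genes, Adam18, Adam3, Adam5, Adam32 and Adam9, with no protein-coding gene between them. The other 4 had mean levels of 2.98, 3.05, 2.63 and 2.83, all under 4, and could not be called.

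Adamts4 and Adamts5 are the aggrecanases, the proteases known for degrading the aggrecan of cartilage. Adamts4 was lower in both mutants, and Adamts5 was higher in HC11-ΔSAP cells. Adamts4 lay at 7.77, 7.73 and 7.60 in HC11-FL, 5.78, 5.98 and 6.02 in HC11-mutB1 and 6.10, 5.95 and 6.01 in HC11-ΔSAP cells. All arrays of both mutants lay more than 1 log2 unit below every control array, and the mutants overlapped. Adamts4 was 3.42-fold lower in HC11-mutB1 (log2 difference -1.77, SE 0.08, adjusted p = 3.0e-06) and, in HC11-ΔSAP cells, 3.20-fold lower (-1.68, SE 0.08, adjusted p = 4.4e-06). The mutants differed by 0.09, with a 95% interval of -0.09 to 0.28 (adjusted p = 0.55).

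Adamts5 lay at 8.40, 8.53 and 8.48 in HC11-FL, 8.64, 8.52 and 8.64 in HC11-mutB1 and 8.94, 9.02 and 9.07 in HC11-ΔSAP cells. HC11-ΔSAP arrays were above all others, and HC11-mutB1 overlapped the control. Adamts5 was 1.45-fold higher in HC11-ΔSAP than in the control (log2 difference 0.54, SE 0.06, adjusted p = 3.5e-04), while the difference of HC11-mutB1 cells was 0.13 (adjusted p = 0.21). It was also 1.33-fold higher in HC11-ΔSAP cells than in HC11-mutB1 (adjusted p = 0.0020), a call that was lost without HC11-ΔSAP replicate 2 (adjusted p = 0.011). Adamts1, a versican-cleaving protease, is the next protein-coding gene to Adamts5 in the GRCm38.p6 annotation. It lay at 9.20, 9.07 and 9.12 in HC11-FL, 9.29, 9.35 and 9.27 in HC11-mutB1 and 9.09, 8.93 and 9.05 in HC11-ΔSAP cells. Adamts1 thus had its highest values in HC11-mutB1 cells and not in HC11-ΔSAP cells, and its differences of 0.17, -0.11 and -0.28 did not pass (adjusted p = 0.082, 0.29 and 0.013).

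Adamts9, which cleaves versican and acts close to the cell surface, was measured by 6 probesets. The probeset with the highest mean lay at 5.96, 5.75 and 5.96 in HC11-FL, 5.75, 5.93 and 5.93 in HC11-mutB1 and 6.35, 6.38 and 6.20 in HC11-ΔSAP cells. It was 1.34-fold higher in HC11-ΔSAP than in the control (log2 difference 0.42, adjusted p = 0.0084) and 1.35-fold higher than in HC11-mutB1 (0.44, adjusted p = 0.0090). Read from this probeset, both calls were lost in 8 of the 9 fits that left out 1 array, with adjusted p = 0.011 to 0.036 against HC11-FL (all but HC11-mutB1 replicate 1) and 0.012 to 0.039 against HC11-mutB1 (all but HC11-FL replicate 2). The other probesets showed wider differences. All 6 were higher in HC11-ΔSAP than in the control, by 0.42 to 1.67 on the log2 scale, and 5 of the 6 were called. Against HC11-mutB1 cells all 6 were higher by 0.44 to 1.23, and 4 were called. Between HC11-mutB1 and HC11-FL cells the 6 differences lay between -0.02 and 0.44, and limma called none, with 2 at an unadjusted p under 0.05. The probeset with the widest difference lay at 3.66, 4.09 and 3.98 in HC11-FL, 4.08, 4.50 and 4.48 in HC11-mutB1 and 5.59, 5.43 and 5.73 in HC11-ΔSAP cells, a rise in HC11-ΔSAP cells (adjusted p = 1.2e-04) of at least 2.99-fold over the minimum level of 4, as the mean in HC11-FL cells was 3.91. The probesets of a gene share its RNA and are not replicates. Which transcript each of them covers was not examined.

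**Figure D2:**
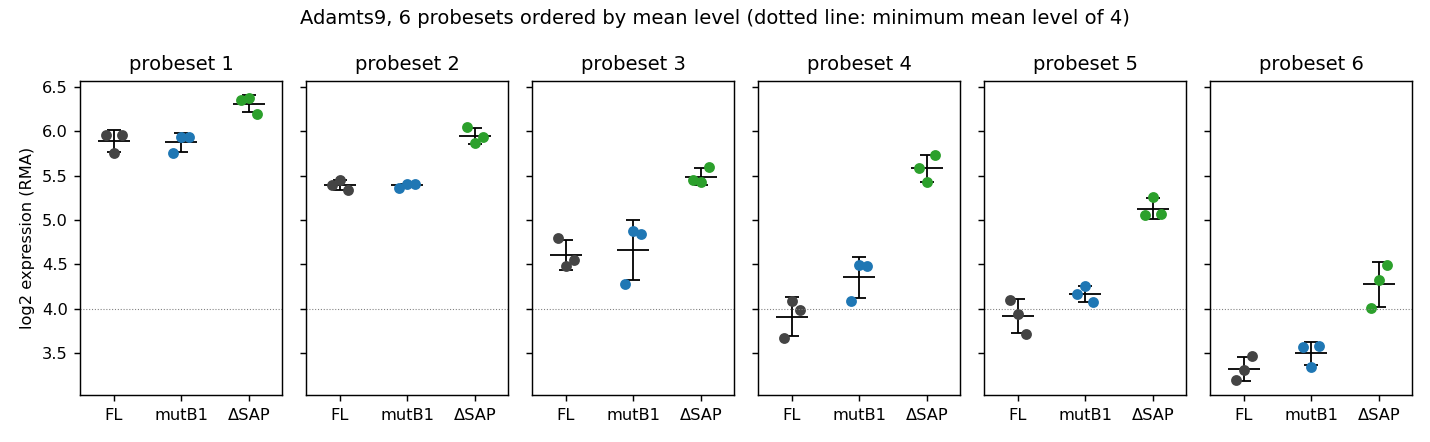
Log2 expression of the 6 Adamts9 probesets, ordered by mean level, in the 3 arrays of each strain (points), with the mean (horizontal line) and the SD (error bar) and a dotted line at the minimum mean level of 4. HC11-ΔSAP arrays lie above those of the other strains in every panel, and the gap is smallest in the probeset with the highest mean level (0.42 against HC11-FL cells).

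Other proteoglycan-cleaving members were not called. Adamts8 had a mean level of 4.00, just at the minimum, and Adamts15 and Adamts20 had 3.67 each. The procollagen N-propeptidases Adamts3 and Adamts14, which trim fibrillar procollagens, had mean levels of 5.53 and 4.38 and differed by -0.11 to 0.11 across the 3 comparisons. Adamts3 had 16 probesets and Adamts17 had 5, of which 5 and 3 had a mean level of at least 4 and could be called. Limma called none of them in any comparison. Its unadjusted p was under 0.05 for 1 Adamts17 probeset between the mutants, at a mean level of 3.04, and for 0 elsewhere.

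Adamts7, which cleaves cartilage oligomeric matrix protein, lay at 6.20, 6.16 and 6.08 in HC11-FL, 5.85, 5.81 and 5.73 in HC11-mutB1 and 5.73, 5.84 and 5.69 in HC11-ΔSAP cells. Both mutants were below all control arrays and overlapped each other. Adamts7 was 1.27-fold lower in HC11-mutB1 (log2 difference -0.35, adjusted p = 0.0037) and, in HC11-ΔSAP cells, 1.31-fold lower (-0.39, adjusted p = 0.0019). The HC11-mutB1 call was lost without HC11-FL replicate 1 or 2 or HC11-mutB1 replicate 2 or 3 (adjusted p = 0.015 to 0.016). The HC11-ΔSAP call was kept in all 15 alternatives with the level and fold minima unchanged. Neither call reached a fold of 2. Adamts12, of the same substrate class, lay at 4.25 and was not called. Adamts13, the protease of von Willebrand factor, lay at 4.27 and was not called either.

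Adamts16, a protease of the remaining ADAMTS that has been reported to cleave fibronectin, lay at 6.39, 6.56 and 6.65 in HC11-FL, 6.29, 6.07 and 6.02 in HC11-mutB1 and 4.79, 4.80 and 4.43 in HC11-ΔSAP cells. The HC11-ΔSAP arrays were far below both other strains. Adamts16 was 3.63-fold lower in HC11-ΔSAP than in the control (log2 difference -1.86, SE 0.12, adjusted p = 2.4e-05) and 2.74-fold lower than in HC11-mutB1 (-1.46, SE 0.12, adjusted p = 1.1e-04). In HC11-mutB1 cells the arrays also lay below the control without overlap, but the difference of -0.40 did not pass (adjusted p = 0.056). Adamts6, an enzyme linked to fibrillin microfibrils, was higher in HC11-mutB1 than in the control by 0.41 on the log2 scale and lower in HC11-ΔSAP cells than in HC11-mutB1 by 0.59. The first of these calls was lost in 7 fits that left out 1 array, which are all but those without HC11-ΔSAP replicate 2 or 3 (adjusted p = 0.014 to 0.030). Fibronectin itself (Fn1) differed by -0.03 in HC11-mutB1 cells and 0.01 in HC11-ΔSAP cells (adjusted p = 0.69 and 0.90).

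Of the 5 ADAMTS-like genes, 3 were called, each in another pattern. Adamtsl3, or punctin-2, lay at 3.42, 3.69 and 3.24 in HC11-FL, 5.03, 5.53 and 5.62 in HC11-mutB1 and 3.70, 3.60 and 3.56 in HC11-ΔSAP cells. It was above 4 in HC11-mutB1 cells alone. Adamtsl3 was higher in HC11-mutB1 than in the control (log2 difference 1.95, SE 0.17, adjusted p = 1.0e-04) and lower in HC11-ΔSAP cells than in HC11-mutB1 (-1.77, adjusted p = 2.1e-04). As the lower strain of each comparison lay under the minimum of 4, the fold is given against that minimum, as at least 2.63-fold in both. Because HC11-mutB1 cells alone carried it past the level filter, it had to differ to be called. Without it, 5 of the genes were called higher in HC11-mutB1 than in the control, 1 of them by at least 2-fold, and 6 were called lower in HC11-ΔSAP cells than in HC11-mutB1, 3 of them by at least 2-fold. Without HC11-mutB1 replicate 2 or 3 its mean level fell to 3.97 to 3.98 and the calls were lost for that reason, with adjusted p = 6.5e-04 to 0.0016.

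Adamtsl4, which binds fibrillin and is mutated in inherited lens dislocation, lay at 6.07, 6.09 and 6.09 in HC11-FL, 6.45, 6.25 and 6.30 in HC11-mutB1 and 7.26, 7.32 and 7.49 in HC11-ΔSAP cells. The strains did not overlap. It was 2.42-fold higher in HC11-ΔSAP than in the control (log2 difference 1.27, SE 0.07, adjusted p = 1.3e-05) and 2.03-fold higher than in HC11-mutB1 (adjusted p = 4.5e-05). In HC11-mutB1 cells the difference was 0.25 (adjusted p = 0.049). Adamtsl5, another fibrillin-binding member, lay at 6.11, 6.06 and 6.19 in HC11-FL, 5.72, 5.71 and 5.55 in HC11-mutB1 and 6.21, 6.11 and 6.31 in HC11-ΔSAP cells. HC11-mutB1 was below the other strains, which overlapped. Adamtsl5 was 1.38-fold lower in HC11-mutB1 than in the control (log2 difference -0.46, adjusted p = 0.0026), a call lost without HC11-FL replicate 1 or 3 (adjusted p = 0.010 to 0.013), and 1.47-fold higher in HC11-ΔSAP cells than in HC11-mutB1 (adjusted p = 0.0013). Adamtsl1 and Adamtsl2 lay at 4.04 and 4.23 and were not called.

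Among the inhibitors, Timp1 lay at 9.74, 9.70 and 9.71 in HC11-FL, 10.61, 10.51 and 10.46 in HC11-mutB1 and 9.44, 9.46 and 9.55 in HC11-ΔSAP cells. The 3 strains did not overlap, in the same order as for Adam12. Timp1 was 1.75-fold higher in HC11-mutB1 than in the control (log2 difference 0.81, SE 0.05, adjusted p = 2.2e-05) and 2.06-fold lower in HC11-ΔSAP cells than in HC11-mutB1 (-1.04, SE 0.05, adjusted p = 6.6e-06). Its difference of -0.23 between HC11-ΔSAP and the control missed the threshold (adjusted p = 0.016). Timp2, which also takes part in the activation of pro-Mmp2, lay at 11.21, 11.21 and 11.20 in HC11-FL, 11.58, 11.55 and 11.54 in HC11-mutB1 and 11.62, 11.61 and 11.65 in HC11-ΔSAP cells. Both mutants were above the control in every array. Timp2 was 1.28-fold higher in HC11-mutB1 (log2 difference 0.35, adjusted p = 2.9e-04) and, in HC11-ΔSAP cells, 1.34-fold higher (0.42, adjusted p = 1.0e-04), and the mutants differed by 0.07, with a 95% interval of -0.02 to 0.15 (adjusted p = 0.30).

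Timp3, the matrix-bound TIMP that inhibits Adam17 and the aggrecanases, lay at 10.55, 10.56 and 10.58 in HC11-FL, 10.74, 10.69 and 10.64 in HC11-mutB1 and 10.45, 10.43 and 10.50 in HC11-ΔSAP cells. The strains did not overlap, but the differences were small. Against the control they were 0.12 and -0.10 (adjusted p = 0.099 and 0.17), and Timp3 was 1.17-fold lower in HC11-ΔSAP cells than in HC11-mutB1 (adjusted p = 0.0094). That call was lost whichever of the 9 arrays was left out (adjusted p = 0.015 to 0.041). Timp4 had a mean level of 3.11 and differed by -0.04 in HC11-mutB1 cells and -0.02 in HC11-ΔSAP cells.

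**Figure D3:**
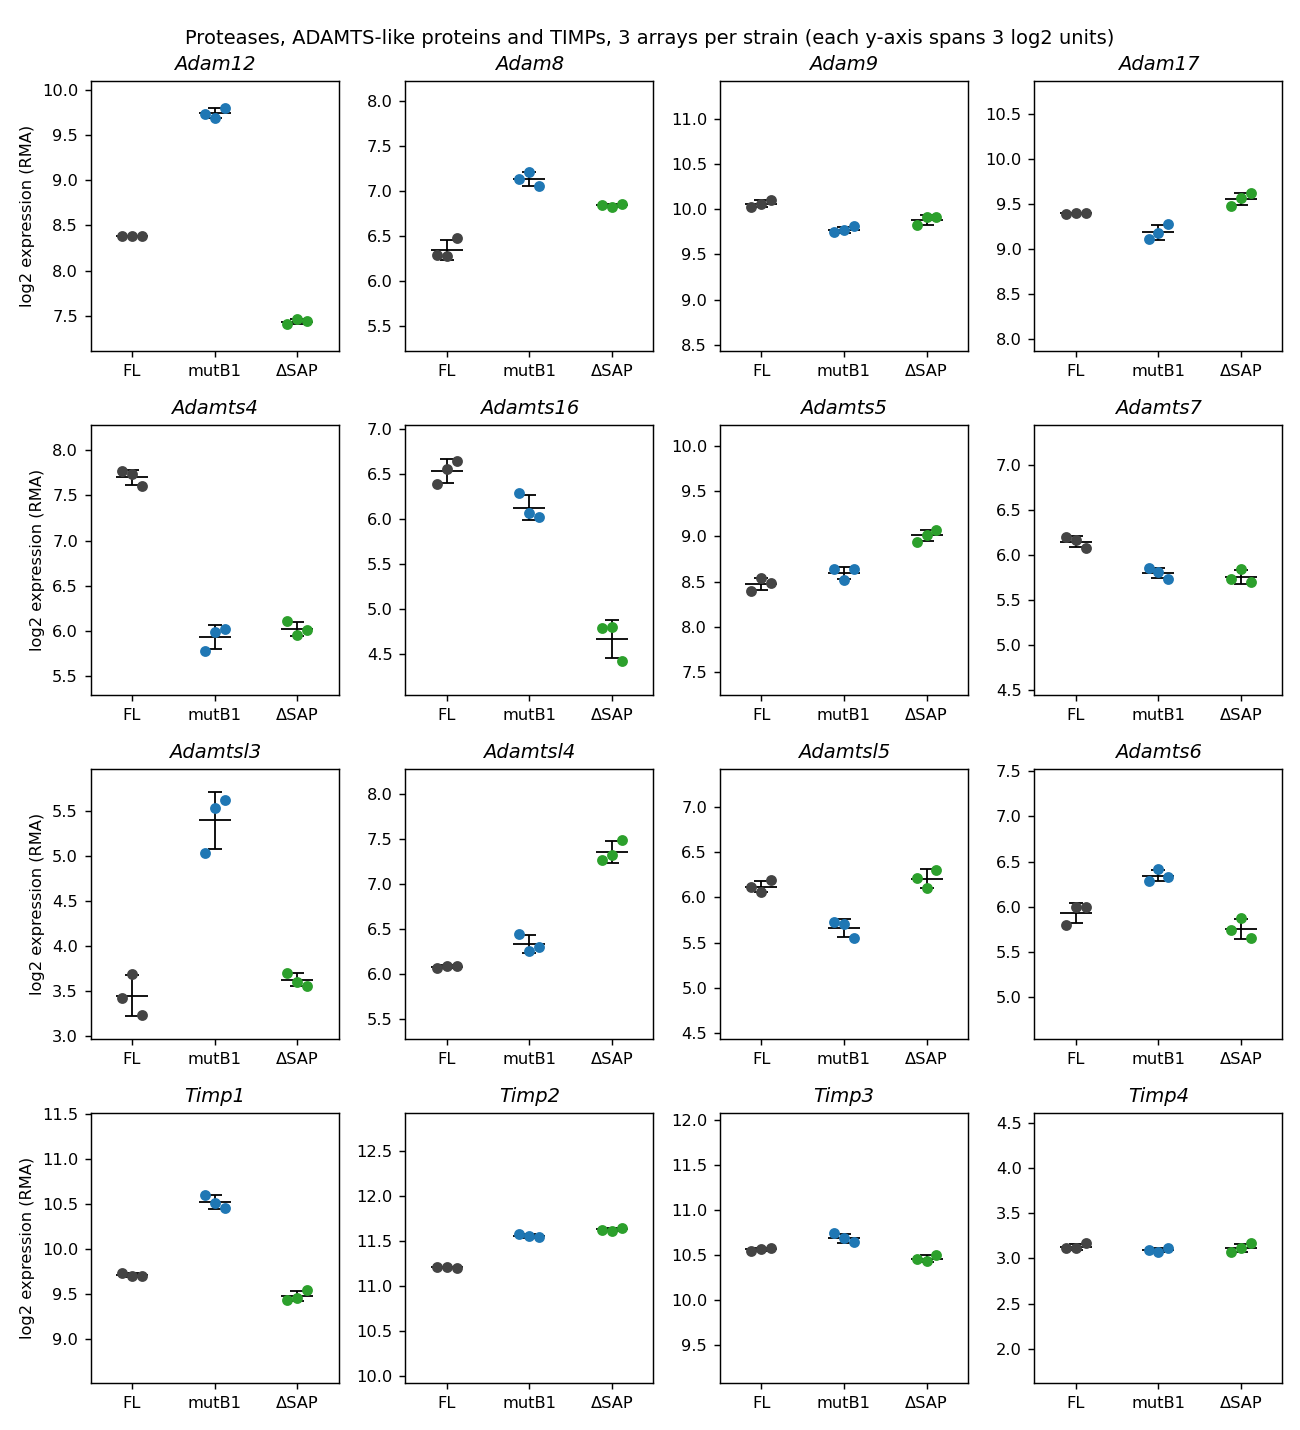
Log2 expression of 16 of the genes in the 3 arrays of each strain (points), with the mean (horizontal line) and the SD (error bar). Each y-axis spans 3 log2 units at its own offset, so that differences can be compared between panels and levels cannot. Adam12 and Timp1 are highest in HC11-mutB1 and lowest in HC11-ΔSAP cells, Adamts4 is low in both mutants, Adamts16 is low and Adamtsl4 high in HC11-ΔSAP cells, and Adamtsl3 is high in HC11-mutB1 cells.

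When the mutants were compared with each other directly, without the control mean, Adam12, Adamts16 and Timp1 were more than 2-fold lower in HC11-ΔSAP cells than in HC11-mutB1, and Adamtsl4 was more than 2-fold higher. Adamtsl3 was also called lower, by at least 2.63-fold against the minimum level, but it passed the level filter through HC11-mutB1 cells alone. The remaining 7 calls were of 1.17-fold to 1.51-fold. Of the 61 genes, 19 did not overlap between the mutants (36.7% of all genes), against 19 between HC11-mutB1 and HC11-FL (39.5%) and 14 between HC11-ΔSAP and HC11-FL cells (37.8%). For the 31 genes at a level of at least 4, the median absolute log2 fold change was 0.20 in HC11-mutB1, 0.12 in HC11-ΔSAP and 0.17 between the mutants, where the 13157 genes at that level had 0.17, 0.16 and 0.13.

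**Figure D4:**
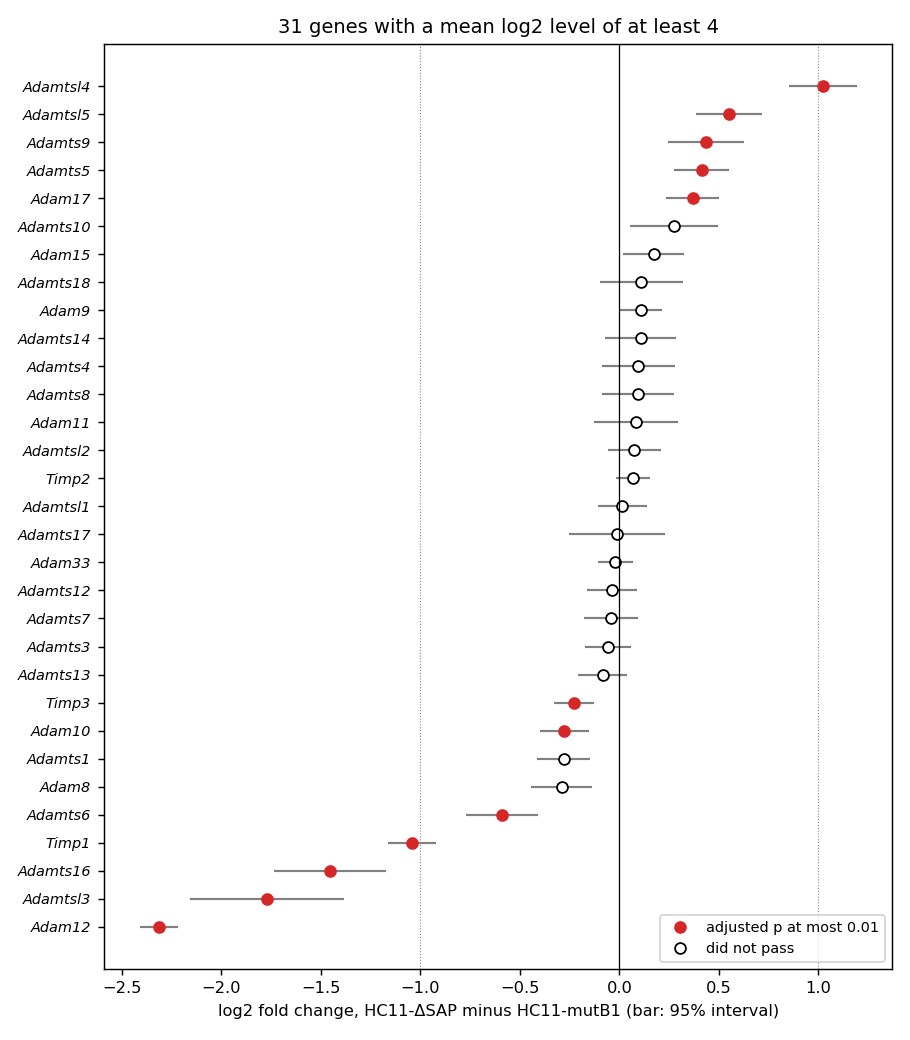
Log2 fold change of HC11-ΔSAP minus HC11-mutB1 cells with its 95% interval (bar) for the 31 genes with a mean level of at least 4, ordered by size, filled where the adjusted p was at most 0.01. Adam12 (-2.31), Adamtsl3 (-1.77), Adamts16 (-1.46) and Timp1 (-1.04) stand at the low end and Adamtsl4 (1.02) at the high end, and Adamts4, low in both mutants, lies near 0 (0.09). The mean of Adamtsl3 in HC11-ΔSAP cells was 3.62, under the minimum level of 4.

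Transcripts whose products act on these proteases were read from a list of 18 regulators. Of them, 5 were lower and 2 were higher in HC11-mutB1 (7.02% and 10.3% of all genes were), and 5 were lower and 3 were higher in HC11-ΔSAP than in the control (7.92% and 10.6% of all genes). Between the mutants 0 were lower and 2 were higher in HC11-ΔSAP cells (7.02% and 6.51% of all genes). Lrp1, the endocytic receptor that clears ADAMTS proteases and Timp3 from the matrix, was 2.65-fold lower in HC11-mutB1 (log2 difference -1.41, adjusted p = 2.7e-06) and, in HC11-ΔSAP cells, 1.53-fold lower (-0.61, adjusted p = 2.2e-04). Tspan5 and Tspan33, tetraspanins that carry Adam10 to the cell surface, were lower by 0.72 and 0.73 (log2) in HC11-mutB1 cells and by 0.61 and 0.64 in HC11-ΔSAP cells. The other tetraspanins on the list, Tspan10, Tspan14, Tspan15 and Tspan17, were not called in any comparison. Pcsk6, a proprotein convertase of the kind that removes ADAMTS prodomains, was 1.45-fold lower in HC11-mutB1 (adjusted p = 0.0015) and, in HC11-ΔSAP cells, 1.65-fold higher (adjusted p = 2.7e-04). Sdc4, a heparan sulphate proteoglycan of the membrane that binds ADAMTS proteases, was 1.63-fold and 1.58-fold higher. Reck, a membrane inhibitor of metalloproteases, was 1.55-fold and 1.48-fold lower, and Rhbdf2, which brings Adam17 to the cell surface, was 1.58-fold and 1.55-fold higher. Reck and Rhbdf2 were chosen after their values had been seen. Of the 18 regulators, 17 had a mean level of at least 4 and could be called, a larger part than of all genes.

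Of 35 measured transcripts that encode substrates of ADAM sheddases, 3 were lower and 14 were higher in HC11-mutB1 (7.02% and 10.3% of all genes), and 2 were lower and 17 were higher in HC11-ΔSAP than in the control (7.92% and 10.6%). Between the mutants, 7 were lower and 8 were higher in HC11-ΔSAP cells (7.02% and 6.51%). The EGF receptor ligand epiregulin (Ereg) was 4.63-fold higher in HC11-mutB1 (adjusted p = 5.8e-07) and, in HC11-ΔSAP cells, 8.75-fold higher (adjusted p = 1.4e-07). N-cadherin (Cdh2), a substrate of Adam10, was 3.49-fold and 10.7-fold higher. The Notch ligand Jag1 was 4.31-fold and 1.45-fold higher, and the membrane chemokine Cx3cl1 was 2.38-fold and 2.16-fold higher. Neuregulin 1 (Nrg1) was 3.11-fold higher in HC11-mutB1 than in the control (adjusted p = 2.9e-05) and, in HC11-ΔSAP cells, had a log2 difference of 0.05 (adjusted p = 0.86). The mutants thus differed 3.02-fold, with HC11-mutB1 the higher (adjusted p = 3.9e-05). The median log2 fold change of the 35 transcripts was 0.12 and 0.18, beside -0.02 and 0.00 over all genes. Of the 35, 33 had a mean level of at least 4 and could be called, a larger part than of all genes.

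Of 24 measured transcripts for ADAMTS substrates, 1 was lower and 4 were higher in HC11-mutB1 (7.02% and 10.3% of all genes), and 1 was lower and 2 were higher in HC11-ΔSAP cells (7.92% and 10.6%). Between the mutants, 4 were lower and 1 was higher in HC11-ΔSAP cells (7.02% and 6.51%). Aggrecan (Acan), the substrate that gave Adamts4 and Adamts5 their name, was 5.43-fold higher in HC11-mutB1 than in the control (log2 difference 2.44, adjusted p = 2.5e-07) and 6.77-fold lower in HC11-ΔSAP cells than in HC11-mutB1 (-2.76, adjusted p = 1.9e-07). Between HC11-ΔSAP and the control it was 1.25-fold lower (adjusted p = 0.0098), a call lost when any array other than HC11-mutB1 replicate 1 was left out (adjusted p = 0.014 to 0.035). Adamts4 was low in both mutants, so the transcripts of the protease and of its substrate did not follow 1 pattern over the 3 strains. Col2a1, the collagen of cartilage, was 2.25-fold higher in HC11-mutB1 cells, and the growth factor Vegfc 2.65-fold higher. The small proteoglycan decorin (Dcn), also among the fibroblast markers, was 3.51-fold higher in HC11-ΔSAP (adjusted p = 2.0e-07) and 1.40-fold lower in HC11-mutB1 cells (adjusted p = 1.4e-04). Thrombospondin 1 (Thbs1) was 1.44-fold and 1.34-fold higher.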

How the data were processed

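RNA of 3 strains, with 3 samples each, was hybridized to Affymetrix mouse gene arrays. The authors deposited log2 expression values of 34760 probesets, made by RMA (background correction, quantile normalization and median polish over all arrays). R 2.10.0 and affy are given in the submitters' processing notes. Scans were not used here, so background and scan batches were not examined, and the number of arrays limits the precision. Probesets were named by the array's annotation, where 21640 have 1 symbol, 1321 several and 11799 none listed.

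Limma 3.58.1 (R 4.3.3) was fitted with 1 mean per strain over all 9 arrays (degrees of freedom 6 residual, 1.93 prior). Benjamini-Hochberg adjustment ran over all probesets. A gene passed with a mean level of at least 4 and an adjusted p of 0.01 or less. The moderated test and these thresholds follow the study's methods, which do not state the design of the fit. In a simulation of HC11-ΔSAP against HC11-FL (34760 probesets), the test recovered 26 of 50 changes of 1.5-fold, 46 of 50 of 2.5-fold and 49 of 50 of 4-fold. It called 1 of 34560 unchanged probesets. The simulated noise was normal and independent between arrays, with its spread taken from the same fit. All changed probesets had a mean level of at least 4 and were a small part of the total, whereas 18.5% of all genes were called in the real comparison. Repeated values like those in the deposited data were not simulated. These counts therefore give neither the error rate nor the recovery of the real arrays.

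The genes, role lists, related lists and markers were chosen with earlier results of these data known. The named genes were the TIMPs and 12 proteases fixed by name, members called with a fold of at least 2, and per comparison the 3 highest and 3 lowest among those called without overlap. Any other called member was named by role. From related lists, the 3 largest changes per comparison were named. The alternatives were other level and fold minima, fits and scalings, all probesets of a gene averaged, a fit blocked by replicate number, and fits that left out 1 array. Other level and fold minima were applied to the counts of called genes and not to single values, so counts had 18 alternatives and single values 15.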

Additional observations from a re-analysis of the deposited data

How the results depend on the processing

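Single values were followed in 15 alternatives, which left the level and fold minima unchanged. Of 31 called values of the named proteases, ADAMTS-like genes and TIMPs, 19 were called in all 15. The other 12 were lost in at least 1, and 0 changed sign. Of 32 values that were not called, 6 were called in at least 1 of these alternatives. With a fold of at least 2, the counts of lower and higher genes were 1 and 2 in HC11-mutB1, 2 and 1 in HC11-ΔSAP, and 4 and 1 between the mutants. Fitting only the 2 strains compared gave 4 lower and 5 higher in HC11-mutB1 (Adamts6 lost), 4 and 4 in HC11-ΔSAP (Adamts9 lost), and 5 and 3 between the mutants (Adam10, Timp3, Adam17 and Adamts9 lost). When each array was left out in turn, 2 to 4 genes were lower and 4 to 6 were higher in HC11-mutB1, 4 were lower and 4 to 5 were higher in HC11-ΔSAP, and 4 to 6 were lower and 2 to 5 were higher when HC11-ΔSAP was set against HC11-mutB1.

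Deviations from the strain means correlated at r between -0.11 and 0.26 for samples with the same replicate number, where the pairs of replicate 1 had 0.11 to 0.26, and at -0.26 to 0.23 for different numbers. As r was not over 0.1 in every pair, the numbers were not taken as pairs. With the replicate number as a block, 3 genes were lower and 6 were higher in HC11-mutB1, 4 and 4 in HC11-ΔSAP, and 5 and 4 between the mutants, where Adam10, Adamts9, Adamtsl5 and Timp3 lost a call.

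Some values that were not called, and that lay near 0 in the results above, changed sign. Adamts9 in HC11-mutB1 against HC11-FL cells was 0.00033 with arrays centred again, 0.15 as the mean of its probesets, 0.017 without HC11-FL replicate 1 or 3 and 0.042 without HC11-mutB1 replicate 1 (range -0.087 to 0.042 over the arrays left out). Timp4 in HC11-ΔSAP against HC11-FL cells was 0.0034 without HC11-FL replicate 3 and 0.0076 without HC11-ΔSAP replicate 1 (range -0.041 to 0.0076). Against HC11-mutB1 cells it was -0.0025 without HC11-ΔSAP replicate 3 (range -0.0025 to 0.046). Rhbdf2 between the mutants was 0.0077 without HC11-mutB1 replicate 1 (range -0.061 to 0.0077). The cause was not tested.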
